A study of Homo sapiens with 6 samples.

Results

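The genes described here are those of the interferon response and of antigen presentation by MHC class I, measured as RNA in a colorectal cancer cell line with and without a kinase inhibitor. They were chosen by gene symbol, and each symbol is represented by its RefSeq transcript of highest mean value in the 6 libraries. All 48 symbols were found among the 19223 symbols of the deposited table, 31 of the interferon response, 16 of antigen presentation, and CD274, the gene of the checkpoint ligand PD-L1, which is described on its own.

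LoVo is an established line from a human colon adenocarcinoma. The study treated LoVo cells with DCC-2036 (rebastinib), a tyrosine kinase inhibitor, and asked which RNAs changed. Total RNA was sequenced from 3 Control libraries, treated with vehicle (0 μM), and 3 libraries of cells given 2.5 μM DCC-2036, all in the same medium with serum. The labels give 48 h for both groups, whereas the legend of the study's expression figure gives a shorter time. Nothing says that the libraries of a group came from separate cultures, so p-values measure only the spread between these samples. The values were normalized by the authors, in a way not given in the sources used here, and are not whole reads, so the depth of each library is unknown. Their totals, in which transcripts of a gene share reads, were 38997229, 39956227 and 40587145 in Control 1, 2 and 3 and 43279603, 45957597 and 48023306 in DCC-2036 1, 2 and 3. Values below are given in this order of libraries.

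Type I interferons bind a receptor of the chains IFNAR1 and IFNAR2, and interferon gamma binds one of IFNGR1 and IFNGR2. Kinases at the receptors activate STAT proteins, which with IRF9 or as dimers switch on antiviral genes through short DNA elements, the ISRE and the GAS. The same signals raise class I antigen presentation, in which proteasome peptides are carried into the endoplasmic reticulum, trimmed, loaded on class I heavy chains with B2M, and shown to CD8+ T cells, which is how epithelial tumor cells are recognised.

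The libraries carried the RNA of colon epithelial cells. EPCAM had 4651, 4558 and 4524 in Control and 5472, 5341 and 5961 with DCC-2036, and KRT8, another of the 8 epithelial markers, was at 55603 or more in every library and rose. CDH1 rose as well, KRT20 fell from a mean of 53.1 to 23.4 (log2 fold change -1.15, adjusted p = 0.00427), and EPCAM, KRT18, KRT19 and CDX2 were not called. With 1 library left out, KRT8 stayed called in 2 of 6 fits (adjusted p up to 0.0154, without Control 1) and KRT20 in 4 of 6 (up to 0.0182, without Control 3). VIL1 was the 1 epithelial marker below 10 in every library. Markers of leukocytes were low, at most 25.1 in any library (LYZ in DCC-2036 3). PTPRC, CD3D, CD2 and MS4A1 were listed at 0 in all 6 libraries, and the 4 T cell markers summed to at most 11.4 in any library. COL1A1 of the fibroblast markers was at 353 to 520 and was not called. Fewer cells expressing a gene and less RNA per cell cannot be told apart in such bulk RNA.

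A gene was tested when its value was at least 10 in at least 3 libraries, with limma on log2(value + 1), two-sided, and was called at an adjusted p under 0.01 over all genes tested. Of 12725 genes tested, 41.9% were called, 19.2% higher and 22.7% lower with DCC-2036. Of the 48 members, 42 were tested and 15 were called, which is 35.7% of those tested, 7 higher and 8 lower. The 7 include IFI27, which passed the filter only with its DCC-2036 values. Where a value of 10 was required in every library, 14 members were called, beside 45.4% of all genes tested. The interferon response had 6 higher (5 where a value of 10 was required in every library) and 6 lower among 26 tested members (46.2%), and antigen presentation had 1 higher and 2 lower among 15 (20.0%). The members therefore did not move in one direction. Median log2 fold changes were -0.15 for the interferon response and 0.06 for antigen presentation, beside -0.09 for all tested genes. Over all genes this median depended on level, with -0.30 for mean values of 10 to 100, -0.28 for 100 to 1000 and 0.24 for 1000 to 10000. The lists differ in level. With untested members included, the median Control value was 129 over the 31 interferon response members and 956 over the 16 of antigen presentation. So -0.09 is not a level-matched reference for either list. Values of the groups did not overlap in 30 of the 42 tested members, or 71.4%, against 71.1% of all tested genes. With 3 libraries a group, an exact permutation test on 1 gene cannot give a p below 0.1.

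Scaling bears on these directions. When all libraries were set to equal totals, the median of all genes moved from -0.09 to -0.29, that of the interferon response to -0.34 and that of antigen presentation to -0.14, so that the order of the 3 medians was kept while the sign of the last was not. Of all called genes, 45.8% were higher with the deposited values and 32.7% with equal totals. The 15 called members kept their direction under all 3 scalings. When 1 library was left out, the fit called between 2444 genes (without Control 2) and 6161 genes (without DCC-2036 1). Of the 15 called members, IFNGR1, IRF1, IRF9, IFIT5, OAS3 and NLRC5 stayed called without each single library, and also with every other setting. With no filter, the calls of IRF3, IRF7, IFI27, IFITM2, IFITM3, TAP2 and ERAP1 were lost, with adjusted p from 0.0102 (IFI27) to 0.0203 (TAP2).

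**Figure D1:**
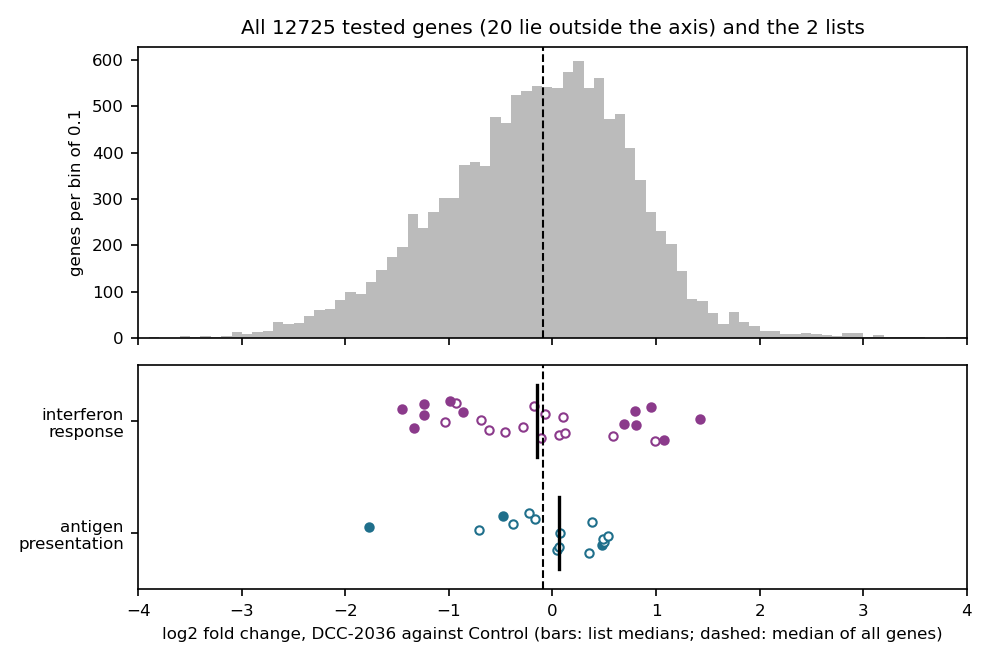
Log2 fold changes (DCC-2036 against Control, on log2(value + 1)) of all 12725 tested genes as a histogram, and of the 26 tested interferon response genes and 15 tested antigen presentation genes as points, filled where the adjusted p was under 0.01. Both lists spread to either side of 0, with medians of -0.15 and 0.06 drawn as bars beside the dashed median of all genes at -0.09.

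Among the 4 interferon receptor genes, 1 was called (25.0%, beside 41.9% of all tested genes). The ligand-binding chain of the interferon gamma receptor moved away from the others. IFNGR1 had 414, 402 and 380 without the inhibitor and 856, 1035 and 1377 with it. All 3 DCC-2036 libraries lay above all Control libraries, and IFNGR1 rose by 1.42 on the log2 scale (standard error 0.18, adjusted p = 0.00121), the highest log2 fold change among the 42 tested members. Its partner IFNGR2, which carries the signal, was at 811, 782 and 846 in the Control libraries and 870, 861 and 883 with DCC-2036. The IFNGR2 groups lay next to each other without overlap, and the log2 fold change was 0.10 (95% interval -0.12 to 0.32) and -0.10 with equal totals.

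The 2 chains of the type I receptor lay lower with DCC-2036 but were not called. IFNAR1 had 983, 1034 and 982 in Control and 734, 510 and 306 with DCC-2036. Control libraries were close together and the DCC-2036 libraries far apart, without overlap, and IFNAR1 had a log2 fold change of -1.04 (95% interval -1.76 to -0.31, adjusted p = 0.0231). IFNAR2, at 242, 275 and 255 without the inhibitor and 224, 167 and 108 with it, showed the same spread (log2 fold change -0.69, adjusted p = 0.0554). DCC-2036 1 was nearest to Control for both genes, and without that library both were called, with adjusted p = 0.00349 for IFNAR1 and 0.00884 for IFNAR2. With a trend in limma IFNAR1 was called as well (adjusted p = 0.00826). Of the exon bases of IFNAR2, 46.8% lie also in another protein-coding gene model on the same strand.

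Of the 6 transducer and IRF genes 5 were called (83.3%, beside 41.9% of all tested genes), 4 of them lower, and IRF1 and IRF9 alone stayed called without each single library. IRF9, the DNA-binding subunit that joins STAT dimers at the ISRE, had 187, 171 and 191 in the Control libraries and 75.6, 69.2 and 55.5 with DCC-2036. No IRF9 library of one group came near the other, and IRF9 fell by 1.45 on the log2 scale (standard error 0.14, adjusted p = 0.000522). Its partner STAT2 was at 461, 451 and 442 in Control and 274, 231 and 185 with DCC-2036, and fell by 0.99 (standard error 0.16, adjusted p = 0.00244). IRF1, an activator of class I and other interferon gamma targets, was at 278, 267 and 284 without the inhibitor and 144, 106 and 104 with it. For both genes every DCC-2036 library was below every Control library, and IRF1 fell by 1.24 (standard error 0.15, adjusted p = 0.000996).

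IRF3 and IRF7, which switch on interferon genes after viral sensing, were called in opposite directions. IRF3, the gene of highest level per kb of transcript in this role (722 in Control), had 1077, 1142 and 1150 in the Control libraries and 752, 627 and 499 with DCC-2036, and fell by 0.86 (standard error 0.16, adjusted p = 0.00459). IRF7 had 177, 209 and 220 in Control and 296, 373 and 390 with DCC-2036, and rose by 0.80 (standard error 0.15, adjusted p = 0.00469). The groups did not overlap for either gene. IRF2, a repressor at IRF sites, ranged from 114 to 144 in Control (131, 114 and 144) and was at 165, 127 and 87.7 in DCC-2036. Its groups overlapped, and its log2 fold change of -0.07 (95% interval -0.64 to 0.49) changed sign with the scaling. The calls of STAT2, IRF3 and IRF7 were kept without DCC-2036 1 and without DCC-2036 3 and lost without each other library. Without Control 1, 2 or 3, or without DCC-2036 2, the adjusted p was 0.0119 to 0.0131 for STAT2, 0.0177 to 0.0213 for IRF3 and 0.0144 to 0.0221 for IRF7. Of IRF1, 5.99% of exon bases overlap a coding model of the other strand and 15.3% overlap C5orf56, a noncoding model of that strand. Exons of IRF3 overlap those of BCL2L12 on the other strand over 20.1% of their bases, and 93.5% of the exon bases of IRF9 lie also in a longer coding model of the same strand, so reads of these genes may be shared.

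**Figure D2:**
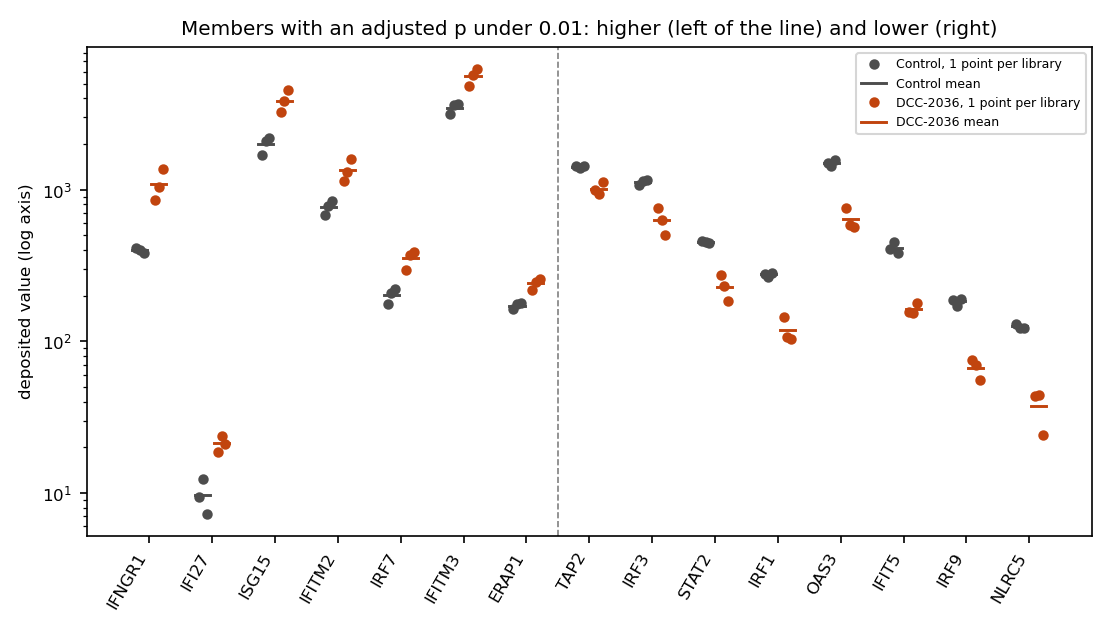
Deposited values, on a log axis, of the 15 members with an adjusted p under 0.01 in each of the 6 libraries, with group means as bars. The 7 higher genes stand left of the dashed line and the 8 lower genes right of it, and in each of the 15 the Control and DCC-2036 points do not overlap.

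Among the 21 interferon-induced genes 16 were tested. Of these, 4 were called higher, IFI27 among them, and 2 lower (37.5%, beside 41.9% of all tested genes). The other 5, IFI44, IFI44L, MX1, OAS1 and OAS2, were below 10 in every library and were left untested, and their values reached at most 6.66 (OAS2 in Control 1). The median log2 fold change of the tested genes was -0.03, with 8 above and 8 below 0.

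The called genes that rose were ISG15, IFITM2 and IFITM3. ISG15, a ubiquitin-like modifier, had 1694, 2085 and 2190 without the inhibitor and 3228, 3843 and 4534 with it, and rose by 0.95 (standard error 0.17, adjusted p = 0.00356). IFITM3, a membrane protein that blocks virus entry, had 3130, 3592 and 3648 in the Control libraries and 4806, 5730 and 6224 with DCC-2036, and rose by 0.69 (adjusted p = 0.0054). In both genes the lowest DCC-2036 library exceeded the highest Control library. IFITM2, its close relative, had 680, 782 and 840 in Control and 1132, 1313 and 1600 with DCC-2036 (log2 fold change 0.80, adjusted p = 0.00569). Its groups did not overlap. IFI27 was at 9.39, 12.4 and 7.28 without the inhibitor and 18.7, 23.7 and 21.1 with it, without overlap. As it passed the filter only with its DCC-2036 values, its change decided its testing, and the call is not relied on here. The call of IFI27 was also lost with a trend in limma (adjusted p = 0.0217) and with summed transcripts (adjusted p = 0.0203). IFITM genes are alike in sequence, and how reads that match several of them were assigned is not given in the sources used here.

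These 3 calls were lost without some single libraries. Without Control 1, 2 or 3, or without DCC-2036 2, the adjusted p was 0.0119 to 0.0162 for ISG15, 0.0164 to 0.0249 for IFITM2 and 0.0187 to 0.0247 for IFITM3.

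The called genes that fell were IFIT5 and OAS3. IFIT5, of a family that binds viral RNA ends, had 403, 452 and 384 in the Control libraries and 156, 154 and 178 with DCC-2036, and fell by 1.34 (standard error 0.12, adjusted p = 0.000391). OAS3, an enzyme that makes the second messenger of RNase L, had 1503, 1434 and 1567 in Control and 759, 587 and 569 with DCC-2036, and fell by 1.24 (standard error 0.14, adjusted p = 0.000779). Each DCC-2036 library held less than the lowest Control library, and no alternative changed either call. Of related genes, IFIT2, IFIT3 and OASL also lay lower without overlap, uncalled, and IFIT1 had 113, 118 and 107 without the inhibitor and 125, 101 and 144 with it, overlapping groups with a log2 fold change of 0.12 and -0.08 with equal totals. OASL, at 43.0, 89.3 and 65.3 in the Control libraries and 38.3, 30.4 and 29.5 with DCC-2036, had a log2 fold change of -0.94 (adjusted p = 0.0223) and was called without Control 1, its library nearest to DCC-2036 (adjusted p = 0.00862).

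The remaining tested genes of the role were not called. IFIH1, the RNA sensor MDA5, was at 96.0, 69.9 and 85.6 in Control and 94.3, 87.7 and 78.8 with DCC-2036, and IFI35 was at 57.2, 70.3 and 80.3 without the inhibitor and 73.6, 41.5 and 82.6 with it. Groups overlapped in both, and the sign of the log2 fold change, 0.06 for IFIH1 and -0.12 for IFI35, changed when single libraries were left out. IFIT2, IFIT3, IFITM1, ISG20, IFI6 and BST2 had log2 fold changes from -0.61 (IFIT3) to 0.99 (BST2). Without overlap, IFI6 and BST2 lay higher with DCC-2036 (adjusted p = 0.0288 and 0.0671), and IFIT2, IFIT3 and ISG20 lay lower (adjusted p = 0.0454, 0.102 and 0.19). BST2 passed the filter only with its DCC-2036 values and IFIT3 only with its Control values. The group where they were high decided their testing, and their tests are not relied on here. Group means of IFIT2, IFIT3, IFITM1 and BST2 were below 20 in both groups. Per kb of transcript length, the Control mean was 4278 for IFITM3, 3124 for ISG15 and 1164 for IFITM2, against 223 for OAS3, 103 for IFIT5 and 24.4 for IFIT1.

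Promoters are shown to set the DNA elements of the pathway beside these opposite directions. RefSeq promoters (GRCh38.p14, 250 bases before to 50 after the start) were found for 38 of the 48 members. The ISRE core was searched as GAAA, 2 bases of any kind and GAAA again, and the GAS as TTCNNNGAA, on both strands. The GAS letters read the same on both strands, and matches of the 2 motifs may overlap. The ISRE core was found in promoters of 25 of the 38 members (65.8%), against 4.38% of 27305 genes with a promoter. By role it was in 15 of 17 interferon-induced genes, 3 of 5 loading and chaperone genes and both trimming genes. It was in 2 of 4 class I chains, 2 of 3 immunoproteasome genes and none of 3 receptor genes and 3 transducer and IRF genes. By direction it was in 4 of 5 members called higher (IFI27 among them), 3 of 6 called lower and 14 of 22 not called. The difference between these shares was not tested. The GAS was found in 11 of the 38 (28.9%), against 9.38% of all genes.

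The 6 promoters below belong to called interferon response genes with 1 promoter entry and at least 1 match, which stands in capitals. ISG15 (chr1:1013247-1013546, + strand) and IFITM3 (chr11:320811-321110, - strand), both higher with DCC-2036, hold 2 ISRE cores each. IFIT5 (chr10:89414318-89414617, + strand) and OAS3 (chr12:112938224-112938523, + strand), both lower, hold 3 and 2. IRF1 (chr5:132490724-132491023, - strand) and IRF9 (chr14:24161015-24161314, + strand), both lower, hold 1 GAS each and no ISRE core.
ISG15: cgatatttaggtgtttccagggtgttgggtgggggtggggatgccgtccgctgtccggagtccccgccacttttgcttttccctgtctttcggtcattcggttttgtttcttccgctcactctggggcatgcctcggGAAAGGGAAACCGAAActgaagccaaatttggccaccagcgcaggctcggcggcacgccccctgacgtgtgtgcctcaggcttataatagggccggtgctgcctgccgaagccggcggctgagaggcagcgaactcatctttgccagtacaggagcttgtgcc
IFITM3: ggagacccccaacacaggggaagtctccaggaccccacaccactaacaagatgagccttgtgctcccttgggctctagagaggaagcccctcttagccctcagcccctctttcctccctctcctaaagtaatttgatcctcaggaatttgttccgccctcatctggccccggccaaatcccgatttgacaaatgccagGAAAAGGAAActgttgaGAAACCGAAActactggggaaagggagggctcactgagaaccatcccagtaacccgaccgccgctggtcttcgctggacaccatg
IFIT5: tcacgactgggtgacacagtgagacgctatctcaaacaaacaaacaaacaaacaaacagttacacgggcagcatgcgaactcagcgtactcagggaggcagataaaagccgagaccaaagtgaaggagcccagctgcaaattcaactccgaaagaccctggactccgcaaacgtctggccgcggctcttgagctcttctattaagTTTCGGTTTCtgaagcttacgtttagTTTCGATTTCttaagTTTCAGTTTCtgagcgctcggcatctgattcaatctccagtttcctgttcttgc
OAS3: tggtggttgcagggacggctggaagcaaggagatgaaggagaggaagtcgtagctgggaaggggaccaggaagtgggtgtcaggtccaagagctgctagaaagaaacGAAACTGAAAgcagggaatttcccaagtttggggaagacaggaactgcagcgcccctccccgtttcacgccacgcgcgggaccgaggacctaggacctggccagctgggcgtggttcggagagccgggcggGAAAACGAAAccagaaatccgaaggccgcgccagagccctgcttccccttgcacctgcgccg
IRF1: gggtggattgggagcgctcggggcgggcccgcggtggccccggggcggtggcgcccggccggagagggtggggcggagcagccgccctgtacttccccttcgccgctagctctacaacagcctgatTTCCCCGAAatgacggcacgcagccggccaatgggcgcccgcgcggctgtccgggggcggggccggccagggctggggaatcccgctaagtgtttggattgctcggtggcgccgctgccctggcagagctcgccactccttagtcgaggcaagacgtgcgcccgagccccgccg
IRF9: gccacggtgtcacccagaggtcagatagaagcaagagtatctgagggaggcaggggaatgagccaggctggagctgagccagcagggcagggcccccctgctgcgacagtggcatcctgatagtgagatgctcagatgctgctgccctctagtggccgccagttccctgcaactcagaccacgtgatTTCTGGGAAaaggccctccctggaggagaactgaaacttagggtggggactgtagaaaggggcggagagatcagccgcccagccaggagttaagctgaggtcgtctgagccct
The matches of ISG15 overlap and begin 113 and 107 bases before the start, and those of IFITM3 begin 52 and 35 bases before it. IFIT5 has matches 45, 19 and 4 bases before the start, and OAS3 143 and 12 bases before it. A match marks only these letters, and binding was not measured here.

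In antigen presentation, 0 of the 5 class I chains were called at an adjusted p under 0.01 in limma. Over all tested genes 41.9% were called. The directions of the chains differed. HLA-C, a classical heavy chain, had 4740, 5140 and 5605 in the Control libraries and 6405, 7478 and 8753 with DCC-2036 (log2 fold change 0.54, 95% interval 0.19 to 0.89, adjusted p = 0.0179). HLA-B had 1701, 1972 and 2032 in Control and 2343, 2583 and 3108 with DCC-2036 (log2 fold change 0.49, 95% interval 0.14 to 0.83, adjusted p = 0.0241). For both classical chains each DCC-2036 library lay above each Control library. HLA-F, a nonclassical chain, had the opposite order, with 85.4, 109 and 124 without the inhibitor and 50.9, 67.1 and 75.8 with it and no overlap (log2 fold change -0.71, adjusted p = 0.021).

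HLA-E, the ligand of inhibitory receptors on natural killer cells, was at 1077, 1202 and 1231 in the Control libraries and 1097, 1214 and 1387 with DCC-2036. Its groups overlapped, with a log2 fold change of 0.07 (95% interval -0.23 to 0.37) and -0.13 with equal totals. The shared light chain B2M ranged from 1596 to 1776 in Control and from 1740 to 2579 in DCC-2036 (log2 fold change 0.36, adjusted p = 0.0952). The calls of HLA-B, HLA-C and HLA-F depended on the setting. With a trend in limma HLA-B (adjusted p = 0.0084) and HLA-C (adjusted p = 0.00499) were called, HLA-C also without DCC-2036 1 (adjusted p = 0.00675), and HLA-F was called with equal totals (adjusted p = 0.00539). Per kb of transcript, Control means were 3360 for HLA-C, 1772 for B2M, 1229 for HLA-B, 450 for HLA-E and 64.8 for HLA-F. Class I genes are close copies of each other, the alleles of the line may differ from the reference, and how their reads were divided is not given in the sources used here.

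NLRC5, the transactivator that turns on class I genes with the RFX complex at their promoters, changed more than any class I chain. It had 131, 123 and 122 in Control and 43.5, 44.2 and 24.1 with DCC-2036. The highest DCC-2036 library was far below the lowest Control library, and NLRC5 fell by 1.77 on the log2 scale (standard error 0.24, adjusted p = 0.00141), the lowest log2 fold change among the 42 tested members. Both NLRC5 transcripts of the table gave nearly the same value (-1.77 for each).

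Among 7 further class I genes listed beside the members, 1 was called higher, the chaperone PDIA3 (log2 fold change 0.55), and 2 lower, both subunits of the RFX complex. These calls were 42.9% of the 7 genes, beside 41.9% of all tested genes. The call of PDIA3 was kept without 1 library in 2 of 6 fits (adjusted p up to 0.029, without Control 2) and lost with equal totals (log2 fold change 0.35, adjusted p = 0.0175). RFX5 had 610, 570 and 563 without the inhibitor and 191, 212 and 255 with it, and fell by 1.41 (adjusted p = 0.000479). RFXANK had 386, 459 and 462 in the Control libraries and 176, 205 and 173 with DCC-2036, and fell by 1.23 (adjusted p = 0.00062). Both stayed called without each single library, while RFXAP, the other subunit, had a log2 fold change of -0.13 (adjusted p = 0.386). Exons of RFXANK overlap those of BORCS8 over 20.3% and of NR2C2AP over 13.8% of their bases, on the other strand.

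**Figure D3:**
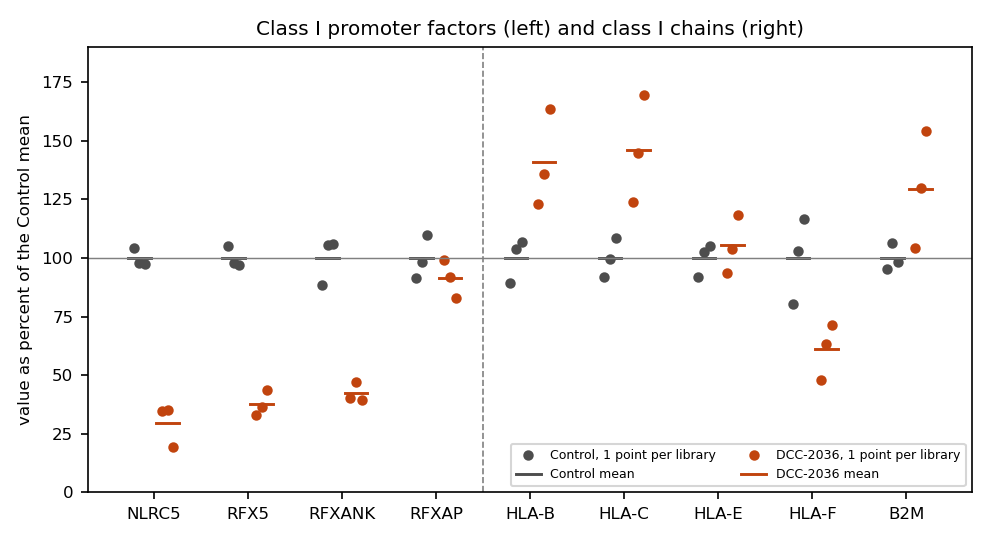
Values of each library as percent of the gene's Control mean, on an axis from 0, for NLRC5 and the RFX genes (left) and the class I chains (right), with group means as bars. In DCC-2036, NLRC5 lay at 19.2 to 35.3%, RFX5 at 32.9 to 43.9%, RFXANK at 39.6 to 47.1%, RFXAP at 83.1 to 99.3%, HLA-F at 48.1 to 71.6%, HLA-E at 93.8 to 119%, B2M at 104 to 154%, HLA-B at 123 to 163% and HLA-C at 124 to 170%.

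Of the 5 genes of peptide loading and chaperones, 1 was called (20.0%, beside 41.9% of all tested genes). TAP2, a subunit of the peptide transporter, had 1426, 1385 and 1429 in Control and 987, 933 and 1128 with DCC-2036, and fell by 0.48 (standard error 0.11, adjusted p = 0.00928). Its partner TAP1 ranged from 665 to 822 in Control and from 620 to 727 in DCC-2036, with a log2 fold change of -0.17 (95% interval -0.48 to 0.13). The TAP2 groups did not overlap and the TAP1 groups did. TAPBP (tapasin), which bridges transporter and heavy chain, was at 1501, 1551 and 1635 without the inhibitor and 1299, 1377 and 1324 with it, the groups not overlapping (log2 fold change -0.23, adjusted p = 0.0739), and was called with equal totals (adjusted p = 0.008).

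The chaperones CALR and CANX, of the glycoprotein folding cycle, differed little. CALR had 18018, 18527 and 19451 in the Control libraries and 17952, 19730 and 20053 with DCC-2036, and CANX had 17820, 17742 and 17967 in Control and 16607, 18742 and 20666 with DCC-2036. Groups overlapped in both. Their log2 fold changes were 0.04 (95% interval -0.20 to 0.28) and 0.06 (95% interval -0.21 to 0.33), and both were negative with equal totals, -0.16 and -0.14. Per kb of transcript, the Control mean was 9808 for CALR, 4188 for CANX, 251 for TAP1 and 249 for TAP2. The call of TAP2 was near the limit, and was lost in the fits without each Control library and without DCC-2036 1 or 2, with adjusted p from 0.0174 to 0.0429, and with the median of ratios (adjusted p = 0.0253). Another coding model of the same strand holds 33.4% of the exon bases of TAP2, so its reads may be shared.

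ERAP1 and ERAP2, the aminopeptidases that trim peptides in the endoplasmic reticulum, lay higher with DCC-2036. ERAP1 had 164, 175 and 178 without the inhibitor and 218, 247 and 257 with it, and rose by 0.48 (standard error 0.11, adjusted p = 0.00909). ERAP2 was at 12.2, 15.9 and 13.8 in the Control libraries and 21.8, 20.6 and 17.7 with DCC-2036 (log2 fold change 0.49, adjusted p = 0.0195). Neither pair of groups overlapped. With equal totals ERAP1 was at 0.28 (adjusted p = 0.0314), with a trend in limma its adjusted p was 0.0152, and its call was lost in the fits without each Control library and without DCC-2036 2 or 3, with adjusted p from 0.0136 to 0.0409. ERAP2 was called with the median of ratios (adjusted p = 0.00967).

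The immunoproteasome subunits, which replace constitutive ones after interferon, had Control means per kb of transcript of 1.13 (PSMB8), 20.9 (PSMB9) and 371 (PSMB10). PSMB8 was at 2.86, 0.83 and 0.89 in Control and 6.25, 7.59 and 9.28 with DCC-2036 and, below 10 in every library, was not tested. PSMB9 ranged from 14.0 to 19.5 in Control and from 18.5 to 24.5 in DCC-2036, with overlap (log2 fold change 0.38, adjusted p = 0.0789). PSMB10 was at 408, 472 and 478 without the inhibitor and 322, 345 and 375 with it, without overlap (log2 fold change -0.38, adjusted p = 0.028), and was called with equal totals (adjusted p = 0.00341), with 30.7% of its exon bases in another coding model of the same strand. With no filter PSMB8 was called higher in limma (log2 fold change 1.86, adjusted p = 0.00777). Its other transcript had overlapping groups, with 2.86, 0.83 and 0.89 in Control and 3.13, 7.46 and 2.49 with DCC-2036. At such low values the call is not relied on here. No untested interferon response member was called with no filter, the lowest adjusted p being 0.0319 (OAS2). PSMB9 and PSMB10 were tested with the filter and not called.

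Of the 3 constitutive counterparts 2 were called, 1 higher and 1 lower (66.7%, beside 41.9% of all tested genes). PSMB5, which PSMB8 replaces, was at 3480, 4087 and 4249 in the Control libraries and 2228, 2122 and 1981 with DCC-2036, and fell by 0.90 (standard error 0.12, adjusted p = 0.00134). PSMB7, replaced by PSMB10, was at 3276, 3657 and 3770 in Control and 4773, 4999 and 5366 with DCC-2036, and rose by 0.50 (adjusted p = 0.00752). PSMB6, replaced by PSMB9, ranged from 2317 to 2774 in Control and from 2631 to 3075 in DCC-2036 (log2 fold change 0.16, adjusted p = 0.264). The call of PSMB7 was lost without each Control library and without DCC-2036 2 or 3, with adjusted p from 0.0113 to 0.0328, and with equal totals (log2 fold change 0.30, adjusted p = 0.0275).

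CD274 had 33.8, 31.5 and 39.7 without the inhibitor and 19.8, 40.8 and 26.0 with it. Its groups overlapped, with a log2 fold change of -0.32 (95% interval -0.95 to 0.30, adjusted p = 0.306). Its 3 transcripts in the table did not move alike. The second by mean was at 32.0, 25.3 and 30.4 in the Control libraries and 12.5, 17.2 and 9.61 with DCC-2036, and the third at 1.78, 7.05 and 10.3 in Control and 11.5, 31.1 and 22.3 with DCC-2036. Control was higher in the one and DCC-2036 higher in the other, both without overlap, at low values and with exons that the transcripts share. The difference between these transcripts was not tested. Among the 21 members with more than 1 transcript of mean at least 10, CD274, ISG20 and IFI35 were those whose transcripts differed in sign.

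**Figure D4:**
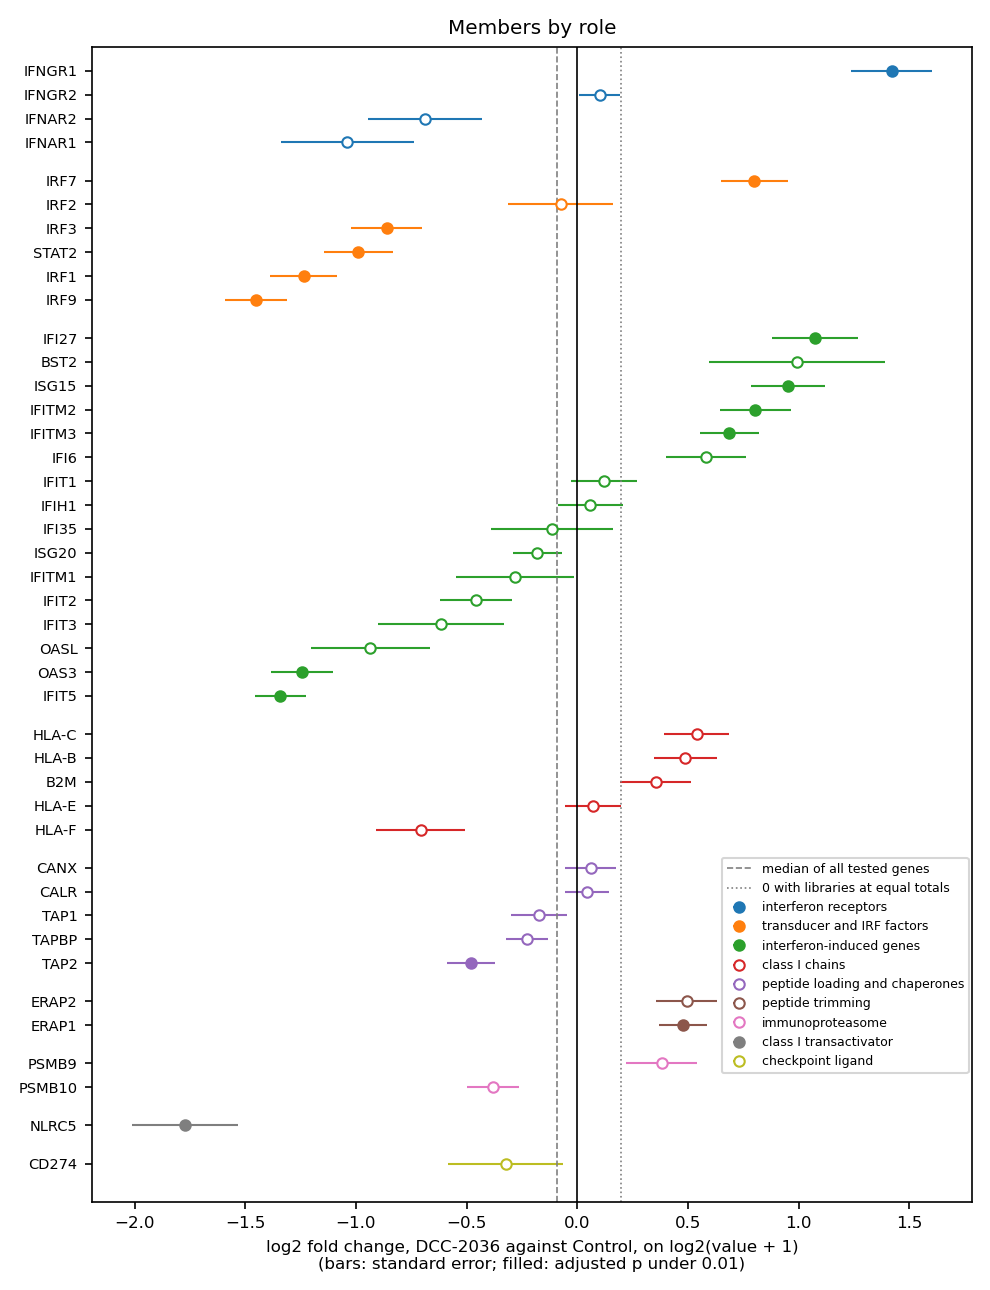
Log2 fold changes of the 42 tested members by role, with standard errors as bars and filled points where the adjusted p was under 0.01. The dashed line marks the median of all tested genes (-0.09) and the dotted line where 0 would lie with libraries at equal totals. Points run from -1.77 (NLRC5) to 1.42 (IFNGR1), and HLA-E, IFIH1, IFNGR2, IFIT1, CALR and CANX lie between 0 and the dotted line.

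Of 72 other genes of the pathway, listed beside the members, 51 were tested and 24 were called (47.1%, beside 41.9% of all tested genes), 8 higher (DHX58 among them) and 16 lower, with a median log2 fold change of -0.03. The 7 interferon genes listed were below 10 in every library and untested. IFNB1, IFNG, IFNK and IFNL3 were listed at 0 in all 6 libraries, and IFNE, IFNL1 and IFNL2 reached at most 6.5. Interferon alpha and omega genes were not analysed here.

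Of the 7 tested sensors and adaptors 1 was called lower and 1, DHX58, higher (28.6%, beside 41.9% of all tested genes). MAVS, the mitochondrial adaptor of the RNA sensors, was at 5119, 4872 and 4911 without the inhibitor and 2544, 1864 and 1118 with it, and fell by 1.51 (standard error 0.29, adjusted p = 0.00475). DHX58 (LGP2), a helper of these sensors, was at 8.46, 7.87 and 8.28 in the Control libraries and 14.6, 16.3 and 26.5 with DCC-2036. It passed the filter only through its 3 DCC-2036 values, so its change decided its testing, and the call is not relied on here. Of the 7 receptor kinases and brakes 3 were called, 1 higher and 2 lower (42.9%, beside 41.9% of all tested genes). PTPN2, a phosphatase that acts on JAK and STAT proteins, rose from 626 ± 7.93 (SD, n = 3) to 1449 ± 341 (log2 fold change 1.18), and PTPN6, a related phosphatase, fell from 976 ± 44.3 to 406 ± 130 (log2 fold change -1.31). Without Control 1, 2 or 3, or without DCC-2036 2, the calls of MAVS, PTPN2 and PTPN6 were lost, with adjusted p from 0.0121 to 0.0208.

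Further induced genes were called in 12 of 20 tested, 3 higher and 9 lower. Beside this, 41.9% of all tested genes were called, 19.2% higher and 22.7% lower, and the difference was not tested. DDX60, a helicase, was at 143, 125 and 100 in Control and 25.9, 21.7 and 20.1 with DCC-2036, and fell by 2.38 (standard error 0.17, adjusted p = 0.000254). SAMD9 was at 118, 119 and 113 without the inhibitor and 32.0, 22.8 and 16.8 with it, and fell by 2.29 (adjusted p = 0.000522). These were the lowest log2 fold changes among the 72 genes. The neighbours PARP9 and DTX3L, whose proteins work as a pair, fell with log2 fold changes of -1.47 and -1.59, and PARP14 fell by 1.65. TRIM21, an antibody receptor in the cytosol, fell by 1.06, and PLSCR1 fell by 1.25. PML and SP100, which build nuclear bodies, both rose, PML from 495 ± 17.7 to 1036 ± 57.6 (log2 fold change 1.06) and SP100 from 373 ± 2.73 to 778 ± 157 (log2 fold change 1.04).

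Of these, DDX60, SAMD9, TRIM21 and PML stayed called without each single library. Leaving out single libraries gave PARP14 an adjusted p of 0.0151 to 0.021 and PLSCR1 one of 0.0203 to 0.0242 without Control 1, 2 or 3 or DCC-2036 2. SP100 was at 0.0108 to 0.0113 without each Control library, PARP9 at 0.014 without Control 2 and 0.0144 without Control 3, and DTX3L at 0.01 without Control 1.

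Among class II genes 3 of 5 were tested and 0 were called in limma (0.0%, beside 41.9% of all tested genes). CIITA, their transactivator, reached at most 1.06. Of the other checkpoint ligands 4 were tested, and 2 were called in opposite directions, beside 41.9% called among all tested genes. CD276 (B7-H3) was at 1628, 1663 and 1801 in the Control libraries and 3604, 3657 and 3735 with DCC-2036, and rose by 1.11 (standard error 0.10, adjusted p = 0.000376). PVR, the ligand of TIGIT, was at 1970, 2027 and 1953 in Control and 1236, 958 and 798 with DCC-2036, and fell by 1.01 (adjusted p = 0.00293). Both had groups without overlap. CD276 stayed called without each single library, and PVR had an adjusted p of 0.0141 to 0.015 without Control 1, 2 or 3 or DCC-2036 2.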

How the data were processed

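The 6 RNA libraries of LoVo cells were assigned to groups from their titles. The authors deposited 1 table with a normalized signal per RefSeq transcript and library, 45006 transcripts in all. How these were normalized is not given, they do not share a common total, and they are not whole reads. Whole reads could not be recovered, so no count test was run. The aligner and genome build are not given in the sources used here. Columns of the log2 fold change, the p-value and the q-value that the authors deposited were not used. The table holds 0 further per-sample columns.

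Members and lists were chosen with earlier results of these data known. Each symbol was represented by its transcript of highest mean. Genes reaching 10 in 3 or more libraries were tested with limma 3.58.1 in R 4.3.3 on log2(value + 1), two-sided, with Benjamini-Hochberg adjustment over all genes and a limit of 0.01. For low genes such fold changes are too small. The labels do not say that libraries came from separate cultures, so p-values measure only the spread between these samples, which may be technical. Transcripts at 0 in only 1 or 2 libraries of a group numbered 3919 in Control and 0 in DCC-2036, and values between 0 and 0.5 numbered 0 in Control and 6692 in DCC-2036. The low DCC-2036 values may therefore not be independent between libraries, and the origin of this was not tested. Median SDs of log2 values were 0.10 in Control and 0.23 in DCC-2036. No test was made over a list. The code was tested on simulated data.

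Values in every library are given for called members, the highest of each role, and members whose call or direction changed with the processing. Other pathway genes are named if called with a log2 fold change of 1 or more in size, with the 3 constitutive proteasome counterparts, and a few genes named beyond this were chosen after their values were seen. Lengths and exon overlaps came from GENCODE 29 through RefSeq accessions, with lengths for 42 of the 48 members. Exons of 19 of the 48 members overlap another gene model, 9 of them a coding one. Only some of these overlaps are named here. Promoters came from RefSeq. Alternatives were 3 scalings, a pseudocount of 0.1, other filters, sums over transcripts, a replicate block, limma with a trend, a limit of 0.05, and each library left out. Python 3.11.15, numpy 2.4.6, pandas 2.3.3 and matplotlib 3.10.9 were used.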

Additional observations from a re-analysis of the deposited data

How the results depend on the processing

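With 3 libraries a group, whose origin in separate cultures is not given, calls depended on single libraries. Leaving out 1 library gave 1 to 6 interferon response genes called higher (6 with all) and 4 to 8 lower (6), 0 to 2 antigen presentation genes higher (1) and 1 to 2 lower (2), 2 to 8 other pathway genes higher (8) and 7 to 16 lower (16), and 929 to 2717 of all genes higher (2442) and 1502 to 3444 lower (2887).

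By setting, interferon response genes called higher were 2 with no filter. Antigen presentation genes called higher in limma were 0 with equal totals and with summed transcripts, 2 with the median of ratios and with a trend, and 4 at a limit of 0.05. Those called lower were 5 with equal totals, 1 with the median of ratios, the upper quartile, no filter or summed transcripts, and 4 at 0.05. Other pathway genes called higher were 5 with no filter. The median of the interferon response (-0.148) was -0.343 with equal totals, -0.277 with no filter, -0.258 without DCC-2036 1, -0.0673 with the median of ratios and -0.0672 with summed transcripts. That of antigen presentation (0.0598) was -0.139 with equal totals, -0.0163 without DCC-2036 3, 0.018 without Control 1, and 0.141 without DCC-2036 1 and with the median of ratios.

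Deviations from the group mean were little correlated between libraries of the same replicate number (correlations 0.081, -0.035 and -0.003). The labels do not say whether these numbers mark a shared day or culture, and the correlations cannot decide it. With a replicate block, 1202 of all genes were higher and 1909 lower, 0 antigen presentation genes higher, and 5 other pathway genes higher and 10 lower. Members that lost their call with it were IRF3 (adjusted p = 0.0161), TAP2 (0.0256) and ERAP1 (0.0218), and HLA-F gained one (0.00874).

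No called member changed direction. Among the others, log2 fold changes with equal totals were -0.0976 (IFNGR2), -0.0773 (IFIT1), -0.136 (IFIH1), -0.127 (HLA-E), -0.155 (CALR) and -0.139 (CANX). IRF2 was at 0.00615 with the median of ratios. Leaving out 1 library moved IRF2 from -0.288 (without DCC-2036 1) to 0.163 (DCC-2036 3), IFI35 from -0.305 (DCC-2036 3) to 0.183 (DCC-2036 2), IFIH1 from -0.0639 (Control 2) to 0.162 (Control 1), HLA-E from -0.0171 (DCC-2036 3) to 0.152 (DCC-2036 1) and CANX from -0.0163 (DCC-2036 3) to 0.141 (DCC-2036 1).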
